A study of Mytilus galloprovincialis with 16 samples.

Results

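The passage of the female gonad from the development stage (stage 2) to the ripe stage (stage 3) was measured directly on 4 dual-color cDNA arrays, chosen by their titles from the 16 female mantle arrays of the series. On each array, total RNA from the mantle of one wild female Mediterranean mussel, Mytilus galloprovincialis, taken from Bizerta Lagoon (Tunisia) in February 2008 at stage 3, competed with RNA from a female taken there in January 2008 at stage 2. No treatment or genetic change was involved, so season and gonadal stage cannot be told apart in any value given here. Stages had been scored by histology of the mantle. The values are log2 ratios of stage 3 over stage 2, one per cDNA clone and array, so that 1 is a doubling at stage 3, -1 a halving and 0 no difference. Stage 3 carried the dye Cy3 on replicates 1 and 3 and Cy5 on replicates 2 and 4. None of the other 12 arrays contributed a value.

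In mussels the gonad does not form a separate organ but grows into the mantle, the tissue that lines and builds the shell. Through winter the female follicles fill with oocytes, which store yolk, ribosomes, maternal mRNA and very large numbers of mitochondria, while the connective and storage tissue around them is used up. A ripe mantle is therefore to a large extent an egg mass, and a developing mantle a mixture of growing oocytes, storage cells, muscle fibres, haemocytes and epithelium. Because whole mantle was extracted, fewer cells of a type and less RNA per cell cannot be told apart.

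One label field of replicate 4 gives stage 4 for the later sample, whereas the title and the month of collection name stage 3, which was used. On replicate 3 the source name and the date field of the stage 2 mussel differ by a year in the January they give. Each RNA came from a single individual and the study describes biological replicates, but no label ties an animal to an array. The p-values therefore measure only the spread among the arrays, which may be partly technical. Each array carried 1920 cDNA probes in 2 spots each, and 81.8% to 92.4% of the probe spots in a channel exceeded the signal of 95% of the empty spots. Arrays of different pairs correlated across probes, which are not independent replicates, with an r between 0.739 (replicates 1 and 2) and 0.896 (replicates 2 and 4). Duplicate spots correlated at 0.714 on replicate 1, the lowest, and at 0.948 on replicate 2, the highest. The array files name clones and not genes. Gene names could be given to the 368 clones that the study itself listed as changed across the gonadal stages on arrays that include these, and their counts are therefore no independent evidence of which way the gene groups moved.

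Of the 1920 probes, 237 (12.3%) changed, 132 (6.88%) of them higher at stage 3 and 105 (5.47%) lower, with a Benjamini-Hochberg adjusted p under 0.05 and log odds of change (B) above 0 in limma. With arrays centred only on their median in place of intensity-dependent loess the split was 99 higher and 124 lower, so the balance of rises and falls depends on that choice. The total dropped to 157 without replicate 3, and the falls to 63, 67 and 67 without replicate 2, 3 or 4. The rises were the larger group also by size. Called rises had a median of 1.61 and 37 of them reached a log2 ratio of 2, whereas the median of called falls was -1.12 and 15 reached -2. All 237 had the same sign on all 4 arrays, as had 906 of all probes (47.2%), 479 higher (24.9%) and 427 lower (22.2%). The root mean square log2 ratio over all probes was 0.79, 0.72, 0.72 and 0.67 on replicates 1 to 4, noise between spots included. It was 0.649 for the mean of the arrays less the part due to error. Replicate 1, with the highest value, also had the lowest correlation of duplicate spots (0.714). Among the 368 clones that can be named, 173 (47%) were called, 99 (26.9%) higher and 74 (20.1%) lower, and 299 (81.2%) had the same sign on all 4 arrays. An unadjusted p under 0.05 in limma was reached by 785 of the 1920 probes, both directions together. These shares and that count are the background for the gene lists below. A further 64 called clones have no name.

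**Figure D1:**
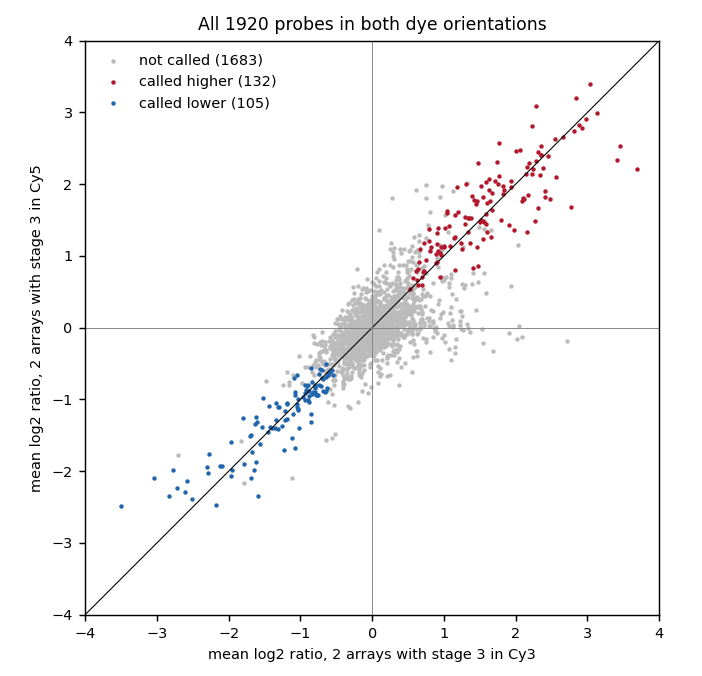
Mean log2 ratio (stage 3 over stage 2) of each of the 1920 probes on the 2 arrays with stage 3 in Cy3 (x axis) against the 2 with stage 3 in Cy5 (y axis), with the line of equality; grey points were not called, red and blue points were called higher and lower. The 132 and 105 called probes lie in the same quadrant in both dye orientations, no probe had a dye difference past the adjusted p in limma, and 208 had one at an unadjusted p under 0.05.

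Short stretches of some of these messages, or of their complements, are known from the Q-PCR assays that the study designed. The study does not state the strand of its probes, so a sequence printed below may be the complement of the message. The dual-labelled (TaqMan) probes of the 5 genes below are shown because the same identifiers carry the Hsp90, elongation factor, NADH dehydrogenase, lethal giant larvae and MAM domain values given here, and each is 28 bases long. The sequences of the spotted cDNA clones were not used here, so whether a clone also reads related transcripts is not known. They are printed 5′ to 3′ in lower case, as the study lists them, and no Q-PCR value was used here.
AJ625621 Hsp90: aagtcctcgcttcctcagtctctcaaca
AJ624922 elongation factor 1 alpha 1: acaaactgtcgccgtaggagtcatcaaa
AJ623584 NADH dehydrogenase subunit 5: acccttgtcacagtcttcttaacccacg
AJ625655 lethal giant larvae homolog 2: ctccatgtgccctctgagtgaaacttgt
AJ624502 MAM domain containing 2: agaggaccaacaccaacaacaatgactg

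The single largest change among all probes was a rise of a histone, and the next a rise of a mitochondrial message. H3 family 3B (AJ516600), the replication-independent histone H3.3 that is laid down outside S phase and is stored in animal eggs, gave 2.84, 3.41, 3.23 and 3.37 on replicates 1 to 4. It was 9.27-fold more abundant at stage 3 (mean log2 ratio 3.21, SE 0.12, adjusted p = 3.49e-05 from limma). The histone variant H2A.Z (AJ516582), also incorporated independently of replication, read 1.46, 2.27, 1.72 and 1.78 and was 3.5-fold higher (adjusted p = 0.000459 from limma). The other 3 members of the chromatin and DNA replication list were not called. Among them the replication helicase subunit of the minichromosome maintenance complex (AJ516412) had a mean of 0.49. A clone described as DNA ligase I (AJ624686) had a mean of -0.75, with -1.13, -0.45, -0.75 and -0.65 on the 4 arrays. Its annotation names the nucleosome and its assembly and no ligase activity, so its identity is uncertain. So 2 of the 5 rose and none fell (1 was lower at an unadjusted p under 0.05), with a median of 0.49 (0.11 with median centring) beside 0.03 over all probes and 0.10 over all probes that can be named. With no background correction the counts were 1 higher and 1 lower.

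Transcripts of the mitochondrial genome rose together. The mitochondrial genome encodes core subunits of the respiratory chain, and oocytes of many animals accumulate mitochondria while they grow. Of the 19 probes for such transcripts 15 were called higher and none lower, and all 19 were above 0 on every array (24.9% of all probes and 44.3% of the nameable ones were), although with print-tip loess the mean of Myt01-019B01 was -0.05. Their median was 2.27, or 2.36, 2.35, 2.10 and 2.28 array by array. Cytochrome b, the mitochondrially encoded core of complex III, was measured by separate clones. AJ624584 read 3.26, 3.15, 3.02 and 2.85 and was 8.39-fold higher (mean 3.07, SE 0.09, adjusted p = 3.49e-05 from limma). AJ624838 read 2.03, 2.40, 2.08 and 2.54 (mean 2.27, SE 0.11, adjusted p = 0.00012). Cytochrome oxidase subunit I (AJ623880), the catalytic subunit of complex IV, gave 3.14, 2.85, 2.62 and 2.82 and a 7.24-fold rise (SE 0.10, adjusted p = 3.49e-05 from limma). NADH dehydrogenase subunit 5 (AJ623584), a proton-pumping subunit of complex I, spread more widely, at 2.04, 3.12, 2.41 and 2.51 (mean 2.52, SE 0.18, adjusted p = 0.000346).

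The remaining 15 mitochondrial probes share the single identifier of the mitochondrial genome (AY484747), come from neighbouring wells of the clone plates, and may read the same transcript more than once. Of these, 11 were called higher, and their means ran from 1.21 to 2.86 around a median of 1.93. The highest, Myt01-019B03, read 3.09, 2.85, 2.77 and 2.72 (7.24-fold higher, SE 0.09, adjusted p = 3.49e-05 from limma). The lowest, Myt01-019B12, read 0.42, 1.42, 1.21 and 1.80 (SE 0.22, adjusted p = 0.011, B = -1.86) and was not called. Replicate 1 was the lowest array for this clone and for each of the other uncalled clones, Myt01-019A04, Myt01-019A05 and Myt01-019B01, where it stood at 0.41, 0.70 and 0.65. Without replicate 1 all 19 mitochondrial probes passed both thresholds and Myt01-019B12 stood at 1.47, and without replicate 2, 3 or 4 there were 14 calls. With print-tip loess 12 were called, the median was 1.81 and Myt01-019B12 stood at 0.05 (adjusted p = 0.786 from limma). The plot of the mitochondrial probes shows that their values fall into a higher run from 1.88 upwards and a lower run of 6 clones between 1.21 and 1.44.

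**Figure D2:**
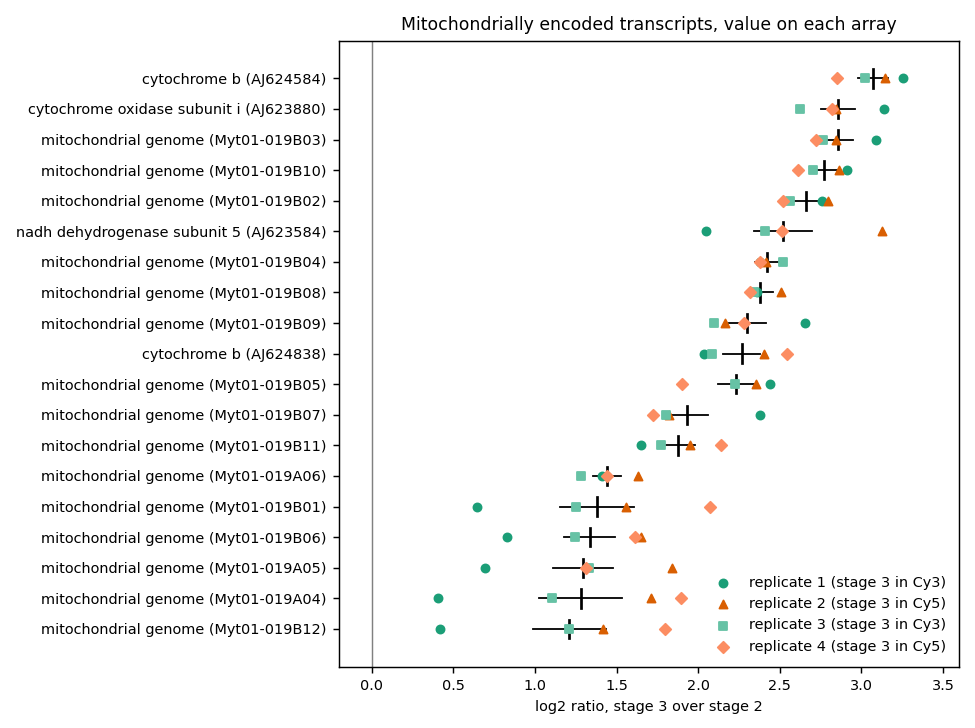
Log2 ratio (stage 3 over stage 2, x axis) of the 19 probes for mitochondrially encoded transcripts (rows, sorted by mean); symbols are the 4 arrays, vertical ticks the mean and horizontal bars ± 1 SE from limma. All 19 means lie between 1.21 and 3.07 and no array value is below 0.41, whereas with print-tip loess, not plotted, the mean of Myt01-019B01 was -0.05.

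Nuclear genes for the same respiratory machinery moved less and in both directions. Of 6 such genes, 2 were higher and 1 lower, near the shares among all nameable probes (26.9% higher and 20.1% lower). Their median was 0.49, or 0.03 with median centring. Cytochrome c (AJ624894), the soluble electron carrier between complexes III and IV, read 0.98, 1.64, 1.11 and 1.56 and was 2.5-fold higher (SE 0.14, adjusted p = 0.0012 from limma). Leaving out replicate 2, 3 or 4 took B of cytochrome c just below 0 (log2 ratio 1.22, 1.40 and 1.25), and it was also not called with median centring (0.80). The beta subunit of ATP synthase, which holds the catalytic sites, was called with one clone (AJ625661, mean 1.12, adjusted p = 0.00175), though not without replicate 3 (1.15) or 4 (1.11), and stood at 0.47 with the other (AJ624752, adjusted p = 0.0139, B = -2.22). Cytochrome c oxidase subunit IV (AJ624079), a nuclear-encoded partner of subunit I in complex IV, read -0.83, -1.08, -0.84 and -0.77 (mean -0.88, SE 0.09, adjusted p = 0.000913 from limma). It was thus lower on every array on which the mitochondrially encoded subunit I was higher, although without replicate 3 (-0.89) or with no background correction (-0.52) its call was lost. Of 4 other mitochondrial carriers and enzymes only 3-hydroxyisobutyrate dehydrogenase (AJ626427), an enzyme of valine breakdown, was called, at 0.60, 0.67, 0.64 and 0.67, and it was not called without replicate 2, 3 or 4 (0.64 to 0.65). Nicotinamide nucleotide transhydrogenase (AJ624576), which makes mitochondrial NADPH, had the highest mean of the 4 (1.47) but ranged from 0.72 to 2.02 and was not called, while leaving out replicate 4 (1.71), median centring (1.39), plain background subtraction (2.11), scaling between arrays (1.42) or separate spots (1.47) brought it past both thresholds. The mitochondrial phosphate carrier (AJ624083) stood at -0.08. Outside this list, AJ624131 was called higher with a mean of 2.99. It is described only as sjchgc01393 protein, but its annotation names the mitochondrion and transporter activity.

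Genes of the egg and the germ line rose in 2 of 3 cases. Vitelline envelope zona pellucida domain proteins form the egg coat in abalone, and P granules are the RNA-rich germ granules first described in the nematode Caenorhabditis elegans. All 3 members of this list were above 0 on every array. The P-granule associated protein pan-1 (AJ623653) read 2.31, 2.05, 2.50 and 1.76 (4.46-fold higher, SE 0.14, adjusted p = 0.000251 from limma). Vitelline envelope zona pellucida domain 7 (AJ625872) read 1.77, 1.44, 2.19 and 1.28 (3.19-fold higher, SE 0.16, adjusted p = 0.00095). Its relative, domain 9 (AJ625914), read 0.74, 1.57, 0.86 and 1.18, with a mean of 1.09 (adjusted p = 0.00375, B = -0.28), close to the threshold. It was called in 9 of 17 alternative settings, among them without replicate 1 (1.20) and with no background correction (1.28). With print-tip loess domain 7 was not called (1.54, B = -0.36), which left 1 of the 3. These egg markers, which check the tissue label, were brighter than the empty spots in both channels of all 4 arrays. Their summed normalized signal ran from 1685 to 4287 units at stage 2 and from 5139 to 10013 at stage 3. It was higher at stage 3 on all 4 arrays. The sum is weighted to the brightest probe, domain 9, which was not called. Its mean log2 intensity was 11.71, against 8.97 for domain 7 and 8.39 for pan-1.

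Of 5 genes of the sperm and axoneme list, 2 rose. The axoneme is the motor core of sperm tails and also of the cilia that cover mantle and gonoduct epithelia. All 5 were above 0 on every array and at an unadjusted p under 0.05, and the median was 0.80. A motor heavy chain annotated with microtubule motor activity (AJ625475) read 2.31, 2.13, 2.14 and 2.16, a 4.55-fold rise (SE 0.07, adjusted p = 3.49e-05 from limma). Axonemal dynein intermediate chain 4 (AJ625992), part of the base of a dynein arm, read 1.23, 1.98, 1.54 and 1.70 (mean 1.61, adjusted p = 0.000562). Dynein light chain 2 (AJ516886), a microtubule motor subunit that is also annotated to vesicle transport, testicular haploid expressed gene (AJ625516), annotated to spermatogenesis, and a radial spoke head-like gene (AJ624749) had means of 0.76, 0.80 and 0.57 and were not called, with B of -0.08, -1.88 and -0.43. The annotation of AJ624749 names the cilium but also iron binding and iron transport, so its identity is uncertain. The summed signal of the list ran from 1249 to 1570 units at stage 2 and from 3227 to 4432 at stage 3. Since the mussels are labelled female, this list also serves as a marker of sperm and of ciliated cells, and their part in the other results was not tested.

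Of 6 chitinase probes, 4 fell and none rose in limma, and all 6 were lower at an unadjusted p under 0.05. These enzymes cleave chitin, the polymer of arthropod cuticle and of the organic matrix of the shell, and in bivalves they are made in the digestive gland, in mantle and in haemocytes. All 6 were below 0 on every array (22.2% of all probes and 37% of the nameable ones were), and their median was -2.17. Array by array the median was -2.88, -2.20, -1.46 and -2.36, with the strongest fall on replicate 1 and the weakest on replicate 3. AJ624637 read -4.32, -2.27, -2.70 and -2.69, a 7.97-fold lower abundance (mean -2.99, SE 0.34, adjusted p = 0.00165 from limma). That probe was not called without replicate 3 (-3.09, B = -0.97) or replicate 4 (-3.09, B = -0.45), and it moved to -0.56 with print-tip loess. AJ623376 read -3.24, -2.19, -2.20 and -2.27 (mean -2.48, SE 0.20, adjusted p = 0.000478). AJ624093 read -2.88, -2.40, -1.46 and -2.55 (mean -2.32, SE 0.23, adjusted p = 0.00107) and lost its call without replicate 2 (-2.30) or 4 (-2.25), with no background correction (-1.74) and in the deposited processed ratios (-1.91). AJ625569 read -2.47, -1.86, -1.46 and -2.28 (mean -2.02, SE 0.18, adjusted p = 0.000699) and kept its call with each array left out in turn. Both remaining probes missed the B threshold. They were AJ625778 at -2.88, -1.91, -0.70 and -2.43 (mean -1.98, adjusted p = 0.00928, B = -1.60) and chitinase 1 (AJ625051) at -2.21, -2.20, -1.46 and -0.97 (mean -1.71, adjusted p = 0.00321, B = -0.05), the latter called without replicate 4 (-1.96).

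The summed chitinase signal ran from 40861 to 69845 units at stage 2 and from 7450 to 12672 at stage 3. Chitinases also mark the digestive gland, so the other digestive enzymes on the array were read beside them. Alpha-amylase (AJ624381), which digests starch, stood at 0.09, -0.05, -0.01 and -0.12 and endo-beta-glucanase (AJ623374), a cellulase, at 0.10, 0.17, -0.19 and 0.12, and no value of either lay further from 0 than -0.19. A trypsin-like protease (AJ624548) rose, at 1.47, 1.49, 1.73 and 1.17 (2.77-fold higher, SE 0.11, adjusted p = 0.000401 from limma), and the transmembrane serine protease 2 (AJ624522) fell, at -1.44, -1.32, -1.09 and -1.43 (2.49-fold lower, SE 0.09, adjusted p = 0.000333). The summed signal of these 4 enzymes overlapped between the stages, at 1519 to 2585 units at stage 2 and 1497 to 2517 at stage 3, and it was slightly lower at stage 3 on each array. Of the digestive markers other than chitinases, 1 thus fell, 1 rose and 2 were not called.

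All 3 named chaperones fell. The heat shock protein Hsp90 is the abundant cytosolic chaperone of signalling proteins and hormone receptors, and Hsp70 binds unfolded chains. Hsp90 (AJ625621) read -2.0, -1.74, -1.24 and -2.01, 3.36-fold lower at stage 3 (SE 0.15, adjusted p = 0.000615 from limma). A second clone for a protein of that family (AJ625915) read -1.45, -1.16, -1.26 and -1.64 (mean -1.38, SE 0.10, adjusted p = 0.000415). Hsp70 (AJ624615) read -0.71, -0.78, -0.60 and -1.01 (mean -0.78, adjusted p = 0.00207, B = 0.62), close to the threshold, and was not called when any 1 array was left out (-0.83 to -0.70) or with no background correction (-0.48). In the protein degradation list the directions differed. The proteasome subunit beta1 (AJ516664), a catalytic subunit of the 20S core, read 2.33, 2.54, 2.36 and 2.29 and was 5.21-fold higher (SE 0.08, adjusted p = 3.49e-05 from limma). Ubiquitin (AJ623726), the tag that sends proteins to it, read -0.97, -0.53, -0.70 and -0.98 (mean -0.80, adjusted p = 0.003, B = 0.06) and lost the call without any 1 of the arrays (-0.88 to -0.73).

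Of 11 translation initiation and elongation factors, 4 fell and none rose in limma, where at an unadjusted p under 0.05 there were 8 lower and 1 higher. Elongation factor 1 alpha brings aminoacyl-tRNA to the ribosome, and elongation factor 2 moves the ribosome along the message. The clone AJ624922, whose Q-PCR probe is printed with the others, read -1.79, -1.19, -1.46 and -1.49, 2.8-fold lower at stage 3 (SE 0.11, adjusted p = 0.000421 from limma), and was not called with print-tip loess (-0.95). Other clones named elongation factor-1 alpha read -1.84, -1.04, -1.41 and -1.46 (AJ625505, adjusted p = 0.000902) and -1.17, -0.82, -1.0 and -0.58 (AJ625361, adjusted p = 0.0027). The values of AJ624922 and AJ625505 lay close together on all 4 arrays, and whether those clones read 1 gene is not known here. Elongation factor 2 (AJ624248) read -0.80, -0.70, -0.80 and -0.99 (mean -0.82, adjusted p = 0.00101). The calls of AJ625505 and elongation factor 2 were lost without replicate 3 (-1.45 and -0.83) or 4 (-1.43 and -0.77), and that of AJ625361 without replicate 1, 2 or 3 (-0.92 to -0.80). Of the 11 factors 9 were below 0 on every array, and their median was -0.55. The count of falls was 1 to 3 with an array left out, the lowest without replicate 3, and 2 with plain background subtraction. The exception in direction was initiation factor subunit 6 (AJ626184) at 0.12, 0.25, 0.37 and 0.53 (mean 0.32, adjusted p = 0.0497, B = -4.15), while another clone of that name, AJ623848, stood at -0.41.

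Of 44 cytosolic ribosomal proteins, 3 rose, none fell past both limma thresholds and 41 were not called, while an unadjusted p under 0.05 was reached by 18 on the lower side and 7 on the higher. Still, 23 of the 44 were below 0 on all 4 arrays and 7 above, and the median was -0.22, or -0.31, -0.16, -0.29 and -0.09 array by array. The choice of thresholds decides the count of falls. With the adjusted p alone 13 were lower and 7 higher, and with a prior share of 0.1 for changed probes 11 were lower and 6 higher, and with no background correction both thresholds were passed by 5 falls. The rises were ribosomal protein L23a (AJ626199) at 2.43, 1.14, 2.12 and 1.83 (3.68-fold higher, SE 0.21, adjusted p = 0.00165 from limma), S24 (AJ626091) at 1.5, 1.42, 1.09 and 1.48 and S3a (AJ626403) at 1.02, 1.24, 0.99 and 1.02. L23a was not called without replicate 3 (1.80) or 4 (1.90), and print-tip loess moved it to 0.61 and ended its call. At the other end L13a (AJ624488) read -1.41, -0.72, -0.81 and -0.60 (mean -0.89, adjusted p = 0.00726, B = -1.26), and its mean was 0.06 with print-tip loess. Pairs of clones that share a ribosomal protein name (L22, S14 and S20) had the same sign in each pair.

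**Figure D3:**
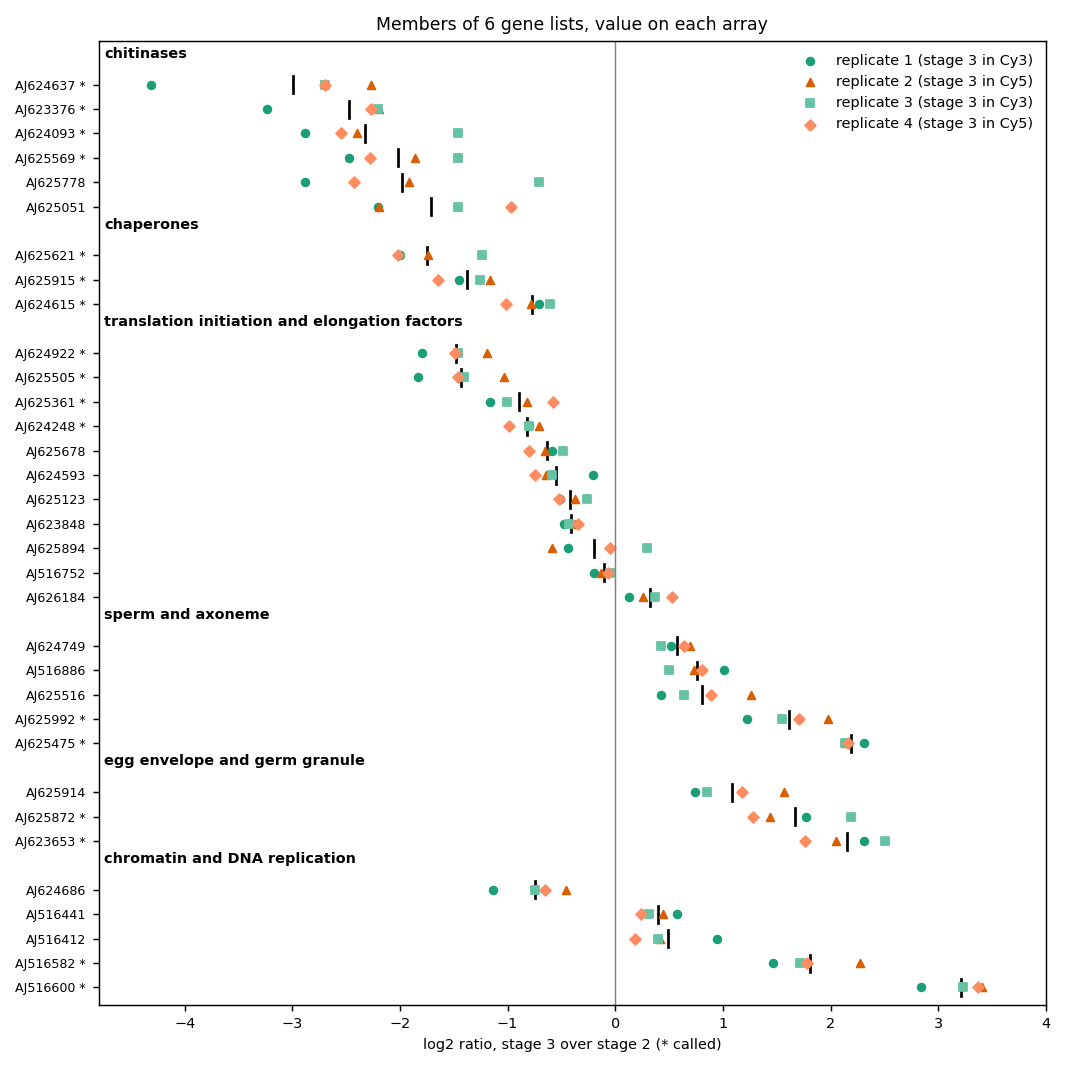
Log2 ratio (stage 3 over stage 2, x axis) of each member of 6 gene lists (rows, grouped by list and sorted by mean); symbols are the 4 arrays, black ticks the mean, and an asterisk marks a called probe. All 6 chitinases and all 3 chaperones lie below 0 on every array, and all 5 sperm and axoneme genes and all 3 egg and germ granule genes lie above 0.

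Of 7 RNA processing genes, 2 rose and 2 fell, near the shares among all nameable probes (26.9% higher and 20.1% lower). Small nuclear ribonucleoproteins Sm D1 (AJ626329) and D3 (AJ516404), members of the ring that binds spliceosomal RNAs, read 1.03, 0.91, 1.28 and 0.70 and 1.0, 0.80, 0.90 and 0.62 (adjusted p = 0.00173 and 0.00147 from limma). Sm D1 was not called without replicate 1, 2 or 3 (0.88 to 1.01) nor Sm D3 without replicate 2 (0.84) or 3 (0.81). The DEAD box RNA helicase 42 (AJ626065) fell with little spread, at -1.30, -1.36, -1.32 and -1.45 (2.56-fold lower, SE 0.07, adjusted p = 0.000156). RNA binding motif protein 17 (AJ625454), a splicing factor, also fell, with a mean of -0.84, and lost the call without replicate 2 (-0.81) or 4 (-0.82). In the secretory pathway, defender against cell death 1 (AJ625979), a subunit of the oligosaccharyltransferase that N-glycosylates proteins in the endoplasmic reticulum, read 2.09, 1.84, 1.56 and 1.88 and was 3.59-fold higher (SE 0.10, adjusted p = 0.000179), although not with print-tip loess (0.88). Sec63 homolog (AJ626414), which assists translocation into that compartment, read -0.53, -0.68, -0.70 and -0.60 (mean -0.63, adjusted p = 0.00192), and leaving out any 1 array took its B below 0 (-0.66 to -0.61). The other 3 of the 5 were not called.

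Of 7 genes of stress, immunity and cell death, 4 rose and none fell in limma (1 was lower at an unadjusted p under 0.05), with a median of 1.03. Rel 1 (AJ623779), a transcription factor of the NF-kappaB family that governs immune genes, read 2.31, 2.20, 1.97 and 2.10 (4.42-fold higher, SE 0.09, adjusted p = 5.46e-05 from limma). The p63/p73-like protein (AJ625243), a relative of the tumour suppressor p53 whose family guards the germ line in mammals, read 2.43, 1.76, 2.38 and 1.88 (4.32-fold higher, SE 0.14, adjusted p = 0.000332). For this gene in digestive gland, the paper reports a Q-PCR trend opposite to that of its arrays. Caspase 7 (AJ625490), an executioner protease of apoptosis, read 1.81, 1.69, 1.51 and 1.60 (mean 1.65, adjusted p = 0.00012). Metallothionein MT-10b (AJ625847), a small metal-binding protein, read 0.88, 1.26, 0.92 and 1.08, a 2.05-fold rise (SE 0.09, adjusted p = 0.000735) that was not called with median centring (0.57). Not called were a bacteria-binding protein (AJ625829) at 0.19, microsomal glutathione S-transferase (AJ625131) at -0.20 and p8 (AJ624834), a stress-induced nuclear protein, at -0.76, -0.56, -0.76 and -0.48 (B = -0.06). With median centring the median of this list was 0.57.

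Of 6 genes of the collagen, byssus and extracellular matrix list, 3 rose, 1 fell and 2 were not called. A collagen alpha-1 chain (AJ626467), a fibrous protein of connective tissue, had one of the narrowest spreads, at 1.93, 1.92, 1.95 and 2.0 (3.86-fold higher, SE 0.07, adjusted p = 3.49e-05 from limma). Foot protein 6 (AJ626112), a component of the byssal plaque by which mussels hold on, read 1.49, 2.21, 1.76 and 1.63 (mean 1.77, adjusted p = 0.000413), and a clone described only as type alpha 1 (AJ625457) rose as well, with a mean of 1.45. Precollagens D and P form the byssal threads. Precollagen D (AJ625760) fell, at -0.63, -0.79, -0.64 and -0.97 (adjusted p = 0.00193), though not without replicate 2, 3 or 4 (-0.80 to -0.69), and precollagen P (AJ623789) stood at 0.17. Matrilin-4-like (AJ624361) was not called at -1.38, -1.28, -1.01 and 0.04, where replicate 4 stood apart, and was called lower without that array (-1.22). The markers of the foot thus did not move together. Outside that list, 2 genes assayed by Q-PCR rose. MAM domain containing 2 (AJ624502), a matrix protein in vertebrates, read 0.98, 1.54, 1.70 and 1.12 (mean 1.34, SE 0.14, adjusted p = 0.00133 from limma). The annotation of this clone names a growth factor receptor activity, so its identity is uncertain. Lethal giant larvae homolog 2 (AJ625655), which sets cell polarity, read 0.99, 1.97, 1.61 and 2.04 (mean 1.65, SE 0.19, adjusted p = 0.00167). The call of MAM domain containing 2 was lost without replicate 2 (1.27) or 3 (1.22), and that of lethal giant larvae homolog 2 without replicate 2 (1.55), 3 (1.67) or 4 (1.52). With plain background subtraction lethal giant larvae homolog 2 moved to 1.09 and was not called.

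Of 6 muscle and cytoskeletal genes, 1 rose and none fell in limma, and at an unadjusted p under 0.05 the counts were 3 and 1. The giant muscle protein unc-89 (AJ624863), known from nematode sarcomeres, read 1.05, 1.84, 1.09 and 0.98 (mean 1.24, adjusted p = 0.00281 from limma, B = 0.17), and without replicate 1, 3 or 4 it was not called (1.29 to 1.33), nor with no background correction (0.69). Sarcoplasmic calcium-binding protein (AJ623579), a calcium buffer of invertebrate muscle, read -0.41, -1.20, -0.65 and -0.95 (mean -0.80, adjusted p = 0.00964, B = -1.66), and actin (AJ625071) stood at -0.42. The summed signal of the list overlapped between the stages (2148 to 6858 units at stage 2 and 2368 to 6688 at stage 3). The counts depend on which genes were listed, since related clones outside the list were called both ways. Among these, an actin binding protein (AJ626386, mean 2.59) and AJ624753 (1.74), annotated to the sarcoplasmic reticulum, were higher. AJ623925 (-1.05), annotated to actin binding and filament bundles, was lower. None of the 6 clones named developmentally-regulated vdg3 was called, and 1 was lower at an unadjusted p under 0.05. Their means ran from -0.29 (AJ625981) to 0.93 (AJ623429), the latter from a single high array, since it read 3.65, -0.63, 0.37 and 0.31.

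The other named genes with the largest changes belong to no list. AJ624131, similar to the Schistosoma japonicum protein sjchgc01393, read 3.63, 2.42, 3.28 and 2.63 (mean 2.99, SE 0.22, adjusted p = 0.000372 from limma), higher on both arrays with stage 3 in Cy3 than on both with it in Cy5. Its annotation names the mitochondrion and transporter activity. An actin binding protein (AJ626386) read 2.67, 2.66, 2.43 and 2.60 (6.02-fold higher, SE 0.08, adjusted p = 3.49e-05). Fibrinogen C domain containing 1 (AJ625799), a receptor that binds acetylated sugars such as chitin in humans, read 1.97, 2.54, 2.06 and 2.39 (4.72-fold higher, SE 0.12, adjusted p = 0.000156). Among the falls was AJ625253, named after a variable surface lipoprotein, at -3.42, -2.10, -2.25 and -2.60 (6.02-fold lower, SE 0.23, adjusted p = 0.000656). General transcription factor IIIC 1 (AJ625594), which recruits RNA polymerase III to tRNA genes, read -2.59, -1.68, -1.59 and -2.17 (mean -2.01, adjusted p = 0.000746). A SAM domain-containing protein (AJ624162) read -2.34, -1.88, -1.05 and -2.31 (mean -1.90, adjusted p = 0.00208) and lost the call without replicate 1 (-1.75), 2 (-1.90) or 4 (-1.76). A retinitis pigmentosa GTPase regulator-like protein (AJ624832), named after a ciliary protein of the vertebrate eye, read -1.29, -1.75, -1.16 and -1.67 (mean -1.47, adjusted p = 0.000615).

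**Figure D4:**
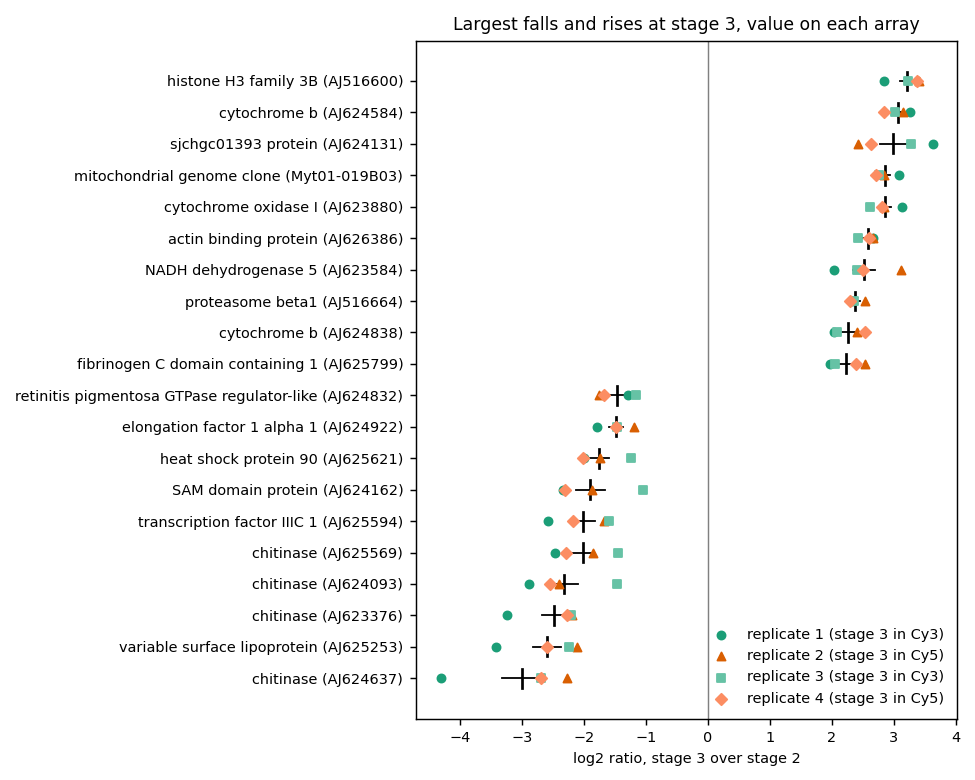
Log2 ratio (stage 3 over stage 2, x axis) of 20 called and described probes, the 10 with the lowest and the 10 with the highest means (rows); symbols are the 4 arrays, vertical ticks the mean and horizontal bars ± 1 SE from limma. The lowest array value of the rises is 1.97 and the highest of the falls is -1.05.

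Clones without any description changed as strongly. Of 160 nameable clones that carry an identifier or table row but no description, 38 were higher and 40 lower. The largest rises were AJ623510 at 3.08, 2.82, 2.87 and 3.0 (7.69-fold, SE 0.08, adjusted p = 3.49e-05 from limma), AJ624348 at 3.71, 2.10, 3.13 and 2.58 (mean 2.88, adjusted p = 0.000755) and AJ623696 at 2.48, 2.55, 2.21 and 2.52 (mean 2.44, adjusted p = 3.49e-05). AJ623510 varied little, whereas AJ624348 ranged from 2.10 to 3.71 and was not called without replicate 3 (2.79). The largest falls were AJ623636 at -3.90, -1.93, -2.18 and -2.27 (mean -2.57, adjusted p = 0.0028), AJ625350 at -2.82, -2.35, -2.21 and -2.43 (mean -2.45, adjusted p = 0.00012) and AJ623739 at -3.04, -1.96, -2.17 and -2.62 (mean -2.45, adjusted p = 0.000448). The first of these was lowest on replicate 1, kept its call without that array (-2.13) and lost it without replicate 2 (-2.78), 3 (-2.70) or 4 (-2.67), with a dye term and with print-tip loess (-0.83). Of the clones with no identifier, Myt01-002G07 read 2.48, 3.30, 3.21 and 3.10 (mean 3.02, adjusted p = 0.00012), and Myt01-013G01 read -2.61, -1.78, -1.63 and -2.07 (mean -2.02, adjusted p = 0.000615). The former, at 8.12-fold, stood among the highest rises of the whole array.

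**Figure D5:**
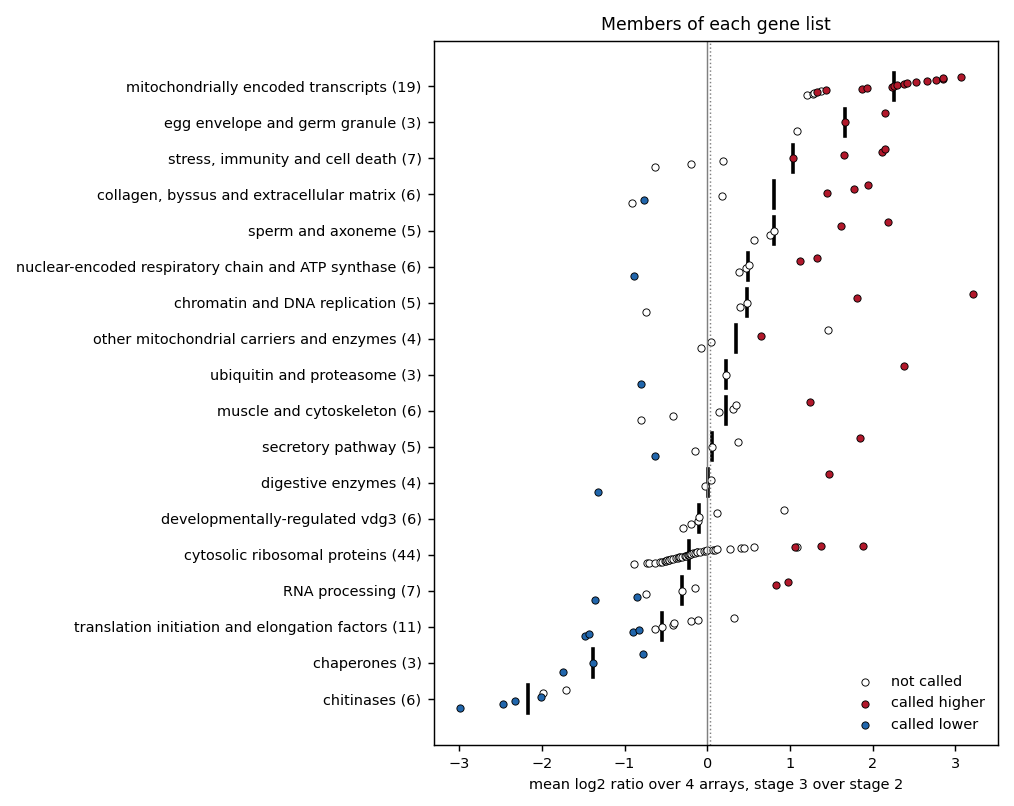
Mean log2 ratio over 4 arrays (stage 3 over stage 2, x axis) of every member of the 18 gene lists (rows, with the number of members); red and blue points were called higher and lower, open points were not called, black ticks are list medians and the dotted line is the median of all probes, 0.03. List medians run from -2.17 for the chitinases to 2.27 for the mitochondrially encoded transcripts.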

How the data were processed

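Mantle RNA was labelled with Cy3 or Cy5, hybridised in pairs and quantified by the authors with GenePix. The deposited scanner files hold spot intensities, of which the mean spot signal and the median local background at 635 nm (Cy5) and 532 nm (Cy3) were used. The authors also deposited processed log2 ratios (offset background subtraction and loess) for each spot. Their direction, which the table does not state, was taken from the scanner values, since they correlated at 0.99999 with loess ratios over all spots of the same scanner values, with medians of 0 to 0.02. They served as an alternative and to name genes.

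Here, intensities were background corrected in limma 3.58.1 (R 4.3.3) by normexp with an offset of 50, normalized within each array by loess with the 608 empty and 112 alignment spots at weight 0, turned so that stage 3 was the numerator, and the mean of the 2 spots was taken for each probe. An intercept was fitted to 4 arrays (lmFit, eBayes, prior share 0.01). Probes were called at a Benjamini-Hochberg adjusted p under 0.05 over all 1920 probes with B above 0. Signal units are normalized intensities per channel. The number of arrays limits the precision. Each array counted as 1 replicate, as the labels list it, and no 2 arrays held the same values. Whether arrays share animals is not known.

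Gene names came from pairing stage effects fitted to the deposited ratios of all 16 arrays with the log2 values in the study's list of changed genes. The list had 368 rows (tolerance 0.005, largest difference 0.00303, closest second clone 0.0152). The other 12 arrays were used for nothing else. Descriptions exist for 208 of these clones. The members and lists were chosen with earlier results of these data known. Named genes were the 10 largest described rises and falls with the same sign on all arrays (only 1 clone of the mitochondrial genome identifier), the genes the study assayed by Q-PCR (10 of 12 could be named), the extremes of each list, and the largest undescribed changes (3 rises and 3 falls with an identifier, 1 of each without). Others are named as members of the lists. The authors' log2 values served only for that pairing, and their test results were not used.

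On simulated arrays of 1920 probes with 50 probes changed at each size, the fit called 12% of log2 changes of 0.5, 68% of 1, 100% of 2 and 94% of 3, with 0 false calls. Alternatives covered background correction, normalization, the deposited ratios, a dye term, separate spots, array weights, dim probes, the call rule and the arrays used.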

Additional observations from a re-analysis of the deposited data

Results flagged for a closer look

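Of the 62 named probes, 3 had an array that stood apart from the other 3, with a gap that took more of the whole range than Dixon's 95% critical value for 4 values allows. Chance marks about 1 in 20 such groups. The chitinase AJ623376 was at -3.24 on replicate 1, where the others lay between -2.27 and -2.20. The motor heavy chain AJ625475 was at 2.31 on replicate 1, where the others lay between 2.13 and 2.16, so that its gap was large only against a very narrow spread. The muscle gene unc-89 (AJ624863) was at 1.84 on replicate 2, against 0.98 to 1.09 on the others.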

How the results depend on the processing

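Of 237 called probes (132 higher, 105 lower), the adjusted p alone gave 582 (313 higher, 269 lower), a prior share of 0.1 gave 457 (246 and 211), and a log2 ratio of at least 1 beside the main rule left 61 lower. The 2 arrays with stage 3 in Cy3, a choice made after seeing the data, gave 71 (61 and 10), and the 2 with stage 3 in Cy5 gave 214. Without each array in turn the counts were 157 to 237 in all, 90 to 146 higher and 63 to 91 lower. Without replicate 4, the array with the conflicting stage label, 177 were called. The size of the change (0.649) was 0.533 with no background correction, 0.702 over probes above the empty spots and 0.77 with plain subtraction. Median centring turned the medians of other mitochondrial carriers (0.35 to -0.085) and of muscle and cytoskeleton (0.23 to -0.280), and the cause was not tested.

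Of the 62 probes named by rule, no called one changed sign in any of 17 settings, and 25 kept the same call in every one. The means of 4 that were not called turned sign in 1 setting each. These were AJ624488 (0.06) and AJ624686 (0.03) with print-tip loess, AJ624083 (0.07) with the Cy3 arrays only and AJ623429 (-0.16) with the Cy5 arrays only. With the Cy3 arrays only, 25 calls were lost and limma called 0 of 6 chitinases, 0 of 3 chaperones and 0 of 11 translation factors lower, while 5, 3 and 6 of them were lower at an unadjusted p under 0.05. No paired analysis was possible because each array is already a ratio of both stages and only 1 comparison was used. The self-test called few changes as small as 0.5, so probes of that size that were not called are not shown to be equal at both stages.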

Other observations

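A further 37 called probes with a description belong to no list, 21 of them higher and 16 lower at stage 3. Those picked out here were chosen after their values were seen. Lunatic fringe (AJ625488), which modifies the Notch receptor, read 1.31, 1.86, 1.53 and 1.71 (mean 1.60, adjusted p = 0.000332 from limma). Latent transforming growth factor beta binding protein 2 (AJ625688), which tethers growth factors in the matrix, read 1.61, 1.62, 1.27 and 1.82. A gamma protocadherin (AJ625806), a cell adhesion protein, read 1.5, 2.18, 1.75 and 1.97. GDP dissociation inhibitor 2 (AJ624260), which recycles Rab proteins of vesicle traffic, read 1.47, 2.38, 2.02 and 2.25 and was 4.08-fold higher. A tankyrase-like ADP-ribose polymerase (AJ623727), named after its contact with the telomere protein TRF1, read 1.78, 1.88, 1.56 and 1.86. A clone described as myc homolog (AJ624437) rose by less, at 0.68, 1.03, 0.81 and 0.85, and was not called without replicate 2, 3 or 4 (0.78 to 0.86). Its annotation names proteolysis and the extracellular region and not transcription, so its identity is uncertain.

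Among the falls, mantle gene 8 (AJ624733), whose name is that of the sampled tissue, read -1.59, -1.46, -1.26 and -1.30 (2.64-fold lower, SE 0.09, adjusted p = 0.000251 from limma). Group IVA phospholipase (AJ625525), which releases the precursor of prostaglandins from membranes, read -1.27, -1.15, -1.60 and -1.04 (mean -1.27, adjusted p = 0.000681). Both a glucose-methanol-choline oxidoreductase (AJ625322) and a glucose dehydrogenase (AJ626213), enzymes that oxidise sugars and alcohols, fell, with means of -1.21 and -1.08. The nascent polypeptide-associated complex alpha subunit (AJ625132), which shields new chains at the ribosome, read -1.0, -0.67, -0.81 and -0.97. Hbs1-like (AJ623877), which rescues stalled ribosomes, read -0.52, -0.67, -0.67 and -0.56, the translationally controlled tumour protein (AJ624149) had a mean of -0.70, and GTP binding protein 4 (AJ623860), needed for ribosome assembly in yeast, one of -0.81. Of the last 4, Hbs1-like and the tumour protein were not called without any 1 array, GTP binding protein 4 not without replicate 1, 2 or 3, and the nascent polypeptide-associated subunit not without replicate 3 or 4.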
